A study of Mus musculus with 4 samples.

Results

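The genes of nuclear transport described here are the nucleoporins, importins, exportins and mRNA export receptors of mouse germline stem cells, the spermatogonial stem cells of the testis grown in culture. They were taken from the array by gene name: every non-control probe whose name begins with Nup, Ipo, Xpo, Kpna, Kpnb, Tnpo, Nxf or Nxt as a numbered or lettered member of those families, together with Tpr, Seh1l and Aaas. This gave 52 of the 27398 gene names on the array, and 112 of its 41174 non-control probes. Ndc1 was also sought by that name, which no probe carried. Its older name Tmem48 did, and it is given with the related genes below.

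Total RNA was hybridised to 4 Agilent 1-colour arrays of 60-base probes. The first group of 2 arrays held RNA from cells given 4-hydroxytamoxifen for 48 hours (written 4-Tamoxifen or Tamoxifen in some labels), called treated cells here, and the second group of 2 arrays held RNA from cells given DMSO, the solvent, for 48 hours. Cells of both groups carried the same alleles, Roa-CreERT2 and CAG-CAT-3FlagNanos2-pA as the design text spells them: a knocked-in Cre that becomes active with 4-hydroxytamoxifen, and a transgene from which active Cre releases FLAG-tagged Nanos2 under the broadly active CAG promoter. No group took 4-hydroxytamoxifen without the construct, so effects of Nanos2, of active Cre and of the compound cannot be told apart. Cells of both groups grew with rat GDNF (20 ng/ml), mouse EGF (20 ng/ml) and human FGF2 (10 ng/ml) on mitomycin-treated mouse embryonic fibroblasts as feeders, which were removed before RNA extraction. Neither the number of cell lines or clones nor the origin of the 2 samples of a group (separate cultures or not) is stated, and p-values therefore reflect only how far these samples lie apart, possibly for technical reasons.

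Nuclear pores are large rings of nucleoporins set in the nuclear envelope. Small molecules pass freely, while proteins and RNAs are carried through the channel by importins and exportins, which bind phenylalanine-glycine (FG) repeats and load or release cargo according to the GTP state of Ran. Pores and transport receptors are used by every nucleus, and in the male germline the set of importin alpha proteins is known to change as spermatogonia differentiate.

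Values are scaled signals, the processed intensity of a probe on a scale where the 75th percentile of each array is 1000, and differences are on the log2 scale, treated minus DMSO, with the standard error (SE) of the fit over 2 arrays a group. A gene was called higher or lower at an adjusted p under 0.05 (limma, adjusted by Benjamini-Hochberg over the whole array), and it is represented by its brightest kept probe. Nanos2 itself read 1280 and 1512 in treated cells, against 478 and 471 in DMSO cells (difference 1.55, SE 0.10, adjusted p = 0.00086). Whether the stretch under this probe is in the construct is not given in the sources used here.

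Other markers moved between the same arrays, and they accompany every result below. Of 10 markers of dividing cells, 10 were lower in treated cells, and their summed signal was 11424 and 12298 in treated cells, against 92826 and 90354 in DMSO cells. Germ cell and spermatogonial markers were lower in 9 of 11 cases, with a median difference of -0.86 (29.3% lower and 40.3% higher over all features). Their sums were 158690 and 163237 in treated cells, against 239355 and 238470 in DMSO cells. Their falls were unequal: Ddx4 (-0.17) and Sall4 (-0.16) were not called, and Tex101 differed by -0.26. Nanos3 (-4.77), Gfra1 (-2.45) and Lin28a (-1.73) fell far more. Ret was not well above background on either treated array. Of 16 fibroblast markers, those of the feeder cell type, 15 were higher, with sums of 365971 and 348883 in treated cells, against 189490 and 216316 in DMSO cells. Among 6 markers of macrophages and blood, 4 were higher, with sums of 2591 and 2582 in treated cells, against 1346 and 1151 in DMSO cells. Among 6 measured markers of Sertoli and Leydig cells, 4 were higher and 1 was lower, with sums of 4601 and 4622 in treated cells, against 2035 and 2125 in DMSO cells, and Amh was not measured above background. No measured marker was at 0. Their part in the results below was not tested.

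Transcripts of the nuclear transport machinery were mostly lower in treated cells. Of the 51 genes measured, 31 were lower, 3 were higher (Nup210l, Ipo5 and Ipo13) and 17 did not pass the test. The Nup210l probe was well above background on the treated arrays only. Over all 17537 genes and other named features on the array, 29.3% were lower and 40.3% were higher (69.5% called in all), while 60.8% of the transport genes were lower. Their median difference was -0.37, against 0.11 over all features. The remaining gene, Nxf7, was not well above background on any array. In RNA from a mass of cells, fewer cells of a type and less RNA per cell cannot be told apart.

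The groups did not overlap in 46 of the 51 genes: both treated arrays lay below both DMSO arrays in 36 genes and above them in 10. Over all features 86.5% did not overlap and 37.6% had both treated arrays below. Of the 31 lower genes, 22 kept that call under all 13 alternative settings. A fall of at least 2-fold was measured for 6 of the 51 genes, Nup62cl, Nxf3, Kpna2, Nup37, Xpo1 and Nup43. Over all features it was 1435 of 17537, or 8.18%. The first count is of few genes, and the gap between the shares was not tested. At the level of single probes, 98 of the 112 were kept, of which 60 were lower, 6 higher and 32 not called (31.1% lower, 36.2% higher and 67.2% in either direction over all probes). The median difference of these probes was -0.45, against 0.05 over all kept probes. Called probes of Nup210l (higher), Nup160 and Xpo5 (lower) were kept only through the group where they read higher.

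**Figure D1:**
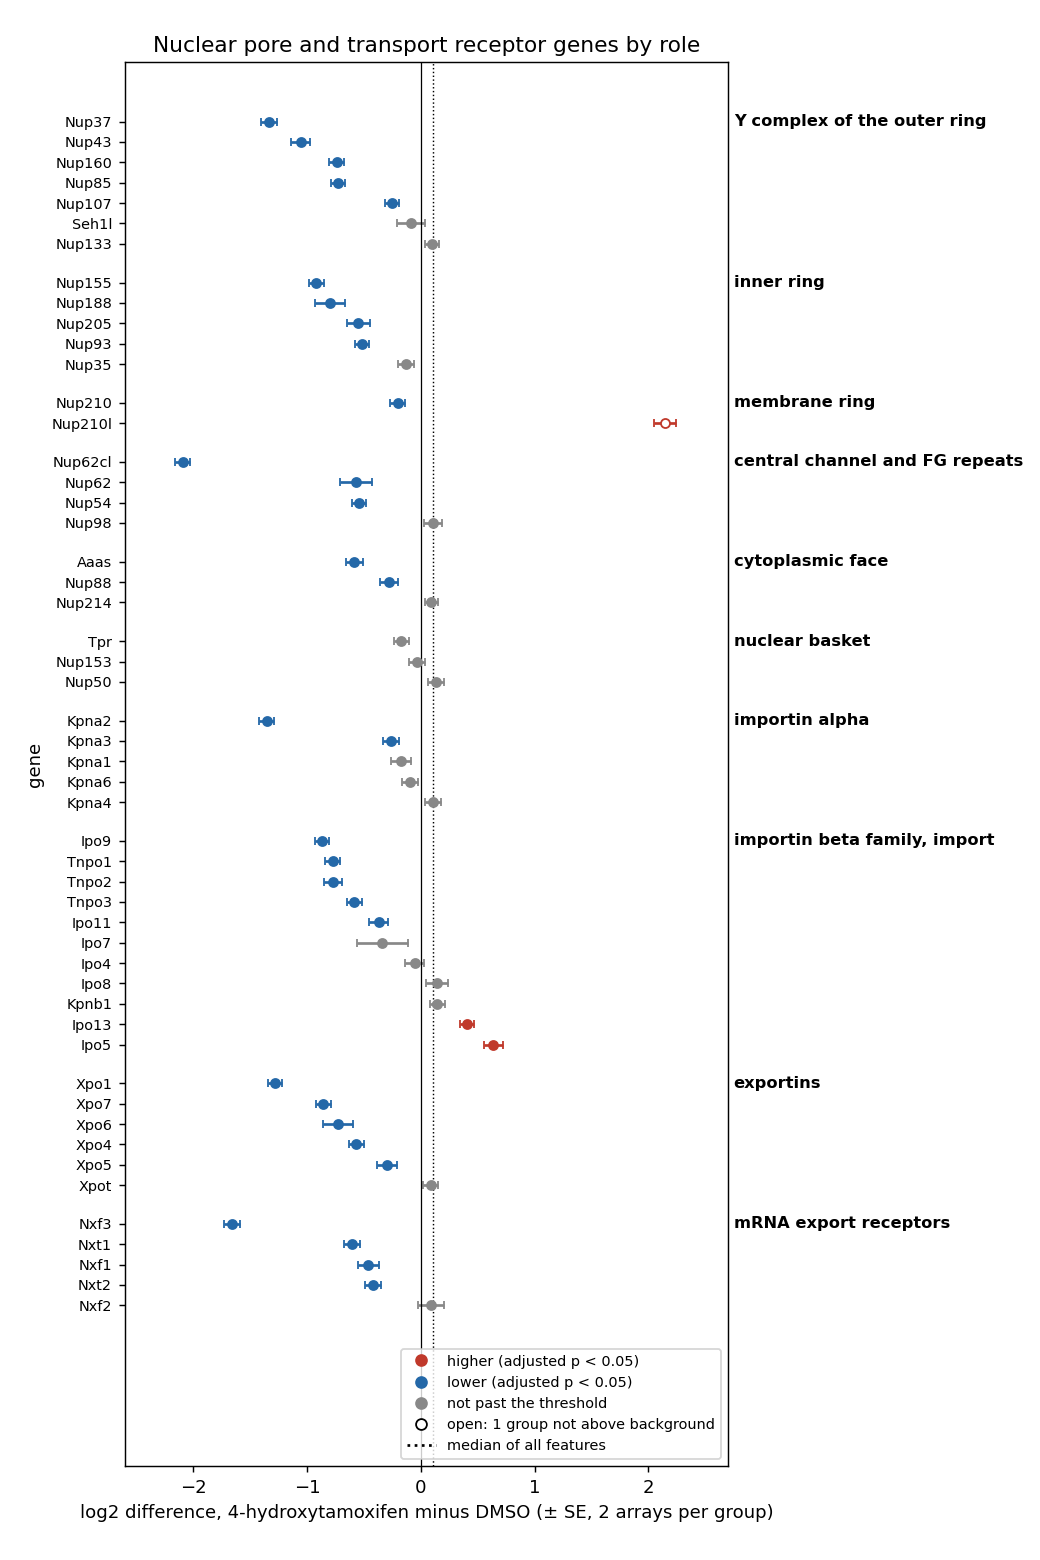
Log2 difference (horizontal axis, treated minus DMSO, 2 arrays per group) of each of the 51 measured genes, in groups by role; bars are the SE and the dotted line is the median of all features, 0.11. Blue points are the 31 lower genes, red the 3 higher and grey the 17 not past the threshold; Nup62cl lies lowest at -2.09, and the open symbol of Nup210l is a fitted value for which only a bound is measured.

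Several of the probes cross an exon junction of the spliced transcript, so their signal comes from a stretch that is split in the genome. Of 22 such probes, 19 were kept, and 13 of these were lower, none was higher and 6 were not called (31.1% lower and 36.2% higher over all kept probes). The Xpo5 probe, among the lower ones, was well above background in DMSO cells only. The 6 below are shown because they measure genes described in the next paragraphs, each given 5′ to 3′ as deposited, in mm9 coordinates that span the intron. They are Nup37 (chr10:87634811-87637170, plus strand), Nup43 (chr10:7387919-7389406, plus strand), Nup160 (chr2:90573346-90575609, plus strand), Nup188 (chr2:30198271-30198461, plus strand), Ipo9 (chr1:137282551-137282825, minus strand) and Xpo5 (chr17:46345161-46351152, plus strand).
Nup37: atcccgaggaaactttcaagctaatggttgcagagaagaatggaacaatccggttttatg
Nup43: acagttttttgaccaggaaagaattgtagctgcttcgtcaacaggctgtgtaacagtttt
Nup160: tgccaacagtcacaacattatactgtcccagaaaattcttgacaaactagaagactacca
Nup188: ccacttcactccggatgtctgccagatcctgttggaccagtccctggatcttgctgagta
Ipo9: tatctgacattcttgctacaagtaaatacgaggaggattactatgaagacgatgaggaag
Xpo5: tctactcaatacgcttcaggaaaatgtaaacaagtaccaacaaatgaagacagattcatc

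The Y complex builds the outer rings of the pore and, in dividing cells, is also found at kinetochores. Of its 7 measured genes, 5 were lower and 2 (Seh1l and Nup133) were not called, with a median difference of -0.73. This count and those of the other roles below are of few genes, and over all features 29.3% were lower and 40.3% higher. Nup37 read 4231 and 4347 in treated cells, against 11264 and 10385 in DMSO cells, a 2.52-fold lower level (difference -1.33, SE 0.07, adjusted p = 0.00067). Nup43, measured by the junction probe printed above, read 1357 and 1416 in treated cells, against 3053 and 2719 in DMSO cells (difference -1.06, SE 0.09, adjusted p = 0.0012). In both genes the treated arrays lay well apart from the DMSO arrays, and a second Nup43 probe at base 424 of the transcript gave the same difference to 2 decimals (-1.06).

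The other scaffold genes of the complex showed smaller differences. Nup160, an arm subunit, read 1750 and 1804 in treated cells, against 3015 and 2917 in DMSO cells (-0.74). Its junction probe, printed above, gave -0.81, and its remaining kept probe, at base 1079, was not well above background on either treated array and at least 1.80-fold lower there. Nup85, in a short arm of the Y, read 27949 and 28846 in treated cells, against 47292 and 46684 in DMSO cells (-0.73). Nup107 differed by only -0.25 (adjusted p = 0.025), a call that did not hold when any 1 of the 4 arrays was left out (adjusted p between 0.062 and 0.12).

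Nup133 and Seh1l were the members of the complex that did not pass the test. Nup133, a stalk end subunit, read 33291 and 34131 in treated cells, against 31898 and 31059 in DMSO cells (0.10, adjusted p = 0.22). The brightest Seh1l probe, at base 2957, read 3049 and 2493 in treated cells, against 2825 and 3016 in DMSO cells (-0.08, adjusted p = 0.58), so its groups overlapped. Both other Seh1l probes, at bases 1142 and 1725, were lower by themselves (-0.79 and -0.80), and with the probes of each gene averaged Seh1l was lower (-0.55, adjusted p = 0.0025).

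The inner ring lines the pore and joins its rings to the membrane. Of 5 genes, 4 were lower and Nup35 was not called (-0.13, adjusted p = 0.15). Nup155, an essential scaffold subunit, read 4408 and 4239 in treated cells, against 8282 and 8041 in DMSO cells (chr15:8107712-8107771 in mm9; difference -0.92, SE 0.06, adjusted p = 0.00093). All 3 Nup155 probes were lower, with differences of -0.92, -0.90 and -1.14. Nup188, one of the large curved subunits, read 277 and 348 in treated cells, against 551 and 528 in DMSO cells (-0.80, SE 0.13, adjusted p = 0.0072), and its other 2 probes were lower too (-0.67 and -0.40).

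The related subunit Nup205 read 296 and 336 in treated cells, against 485 and 439 in DMSO cells (-0.55). A second Nup205 probe did not pass (-0.17, adjusted p = 0.19), and the mean of both gave -0.36. Nup93, which links the ring to the central channel, read 7334 and 7152 in treated cells, against 10284 and 10399 in DMSO cells (-0.51, adjusted p = 0.0028).

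Nup210 and Nup210l are paralogues, and Nup210 is a glycoprotein that spans the nuclear envelope around the pore. Nup210l was called higher. It read 51.9 and 60.4 in treated cells, against 12.4 and 12.9 in DMSO cells, where its probe (chr3:90011231-90011290 in mm9) was not well above background on either array. The treated level was therefore at least 2.42-fold higher (bound set by the dimmest probes well above background). The probe was kept only through the treated arrays, so the fitted adjusted p (0.00052, limma) is no separate support for the rise. With normexp background correction, which adds an offset of 50 to every signal, the difference was 0.51. The size of the difference thus depends on how background is treated. A second Nup210l probe was well above background on 1 DMSO array only, reading 4.32 and 7.81 in treated cells, against 26.3 and 5.44 in DMSO cells, so the rise rests on the first probe. Nup210 read 3819 and 3999 in treated cells, against 4513 and 4484 in DMSO cells (-0.20, adjusted p = 0.047), a call lost when any 1 array was left out (adjusted p between 0.093 and 0.17).

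Nucleoporins with FG repeats fill the channel and bind the transport receptors. Of 4 genes grouped with them, 3 were lower. Nup62cl, named for its likeness to the carboxyl end of Nup62, fell most of all the transport genes: it read 469 and 447 in treated cells, against 1989 and 1915 in DMSO cells (chrX:136541878-136541937 in mm9; 4.26-fold lower, difference -2.09, SE 0.07, adjusted p = 0.00039). Each group spanned a small part of the gap between groups.

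Nup62 itself, a core channel protein, read 6491 and 8346 in treated cells, against 11134 and 10715 in DMSO cells (-0.57, adjusted p = 0.024), and without DMSO replicate 1 its adjusted p was 0.055. Nup54, its channel partner, read 3339 and 3444 in treated cells, against 4855 and 5008 in DMSO cells (-0.54), and its 3 probes were lower, with differences of -0.50, -0.61 and -0.54. Nup98, whose FG repeats help to form the permeability barrier, was not called by its brightest probe (0.11, adjusted p = 0.29), but its 4 probes disagreed, as described with the transcript ends below.

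On the cytoplasmic face, Aaas, which encodes ALADIN, read 4945 and 5392 in treated cells, against 7662 and 7824 in DMSO cells (-0.58, adjusted p = 0.0034). Nup88, a filament protein, read 27516 and 29416 in treated cells, against 35879 and 33189 in DMSO cells (-0.28, adjusted p = 0.035). Without DMSO replicate 1, and without either treated array, the adjusted p of Nup88 lay between 0.073 and 0.14. Nup214, the filament partner of Nup88, was not called (0.09, adjusted p = 0.23).

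The nuclear basket was the role with no called gene. Tpr, which forms the basket filaments, differed by -0.17 (adjusted p = 0.083), Nup153, which anchors them, by -0.03 (adjusted p = 0.69) and Nup50, their mobile partner, by 0.13 (adjusted p = 0.16). With each array scaled to its median, Tpr passed as lower (-0.35, adjusted p = 0.011). With probes averaged, Nup153 passed as lower (-0.29, adjusted p = 0.036). Taken singly, a Nup153 probe at base 932 (-0.74, adjusted p = 0.0058) and a Nup50 probe at base 3871 (-0.34, adjusted p = 0.017) were lower. The other kept basket probes were not called. Whether the basket differs from the other parts of the pore was not tested.

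**Figure D2:**
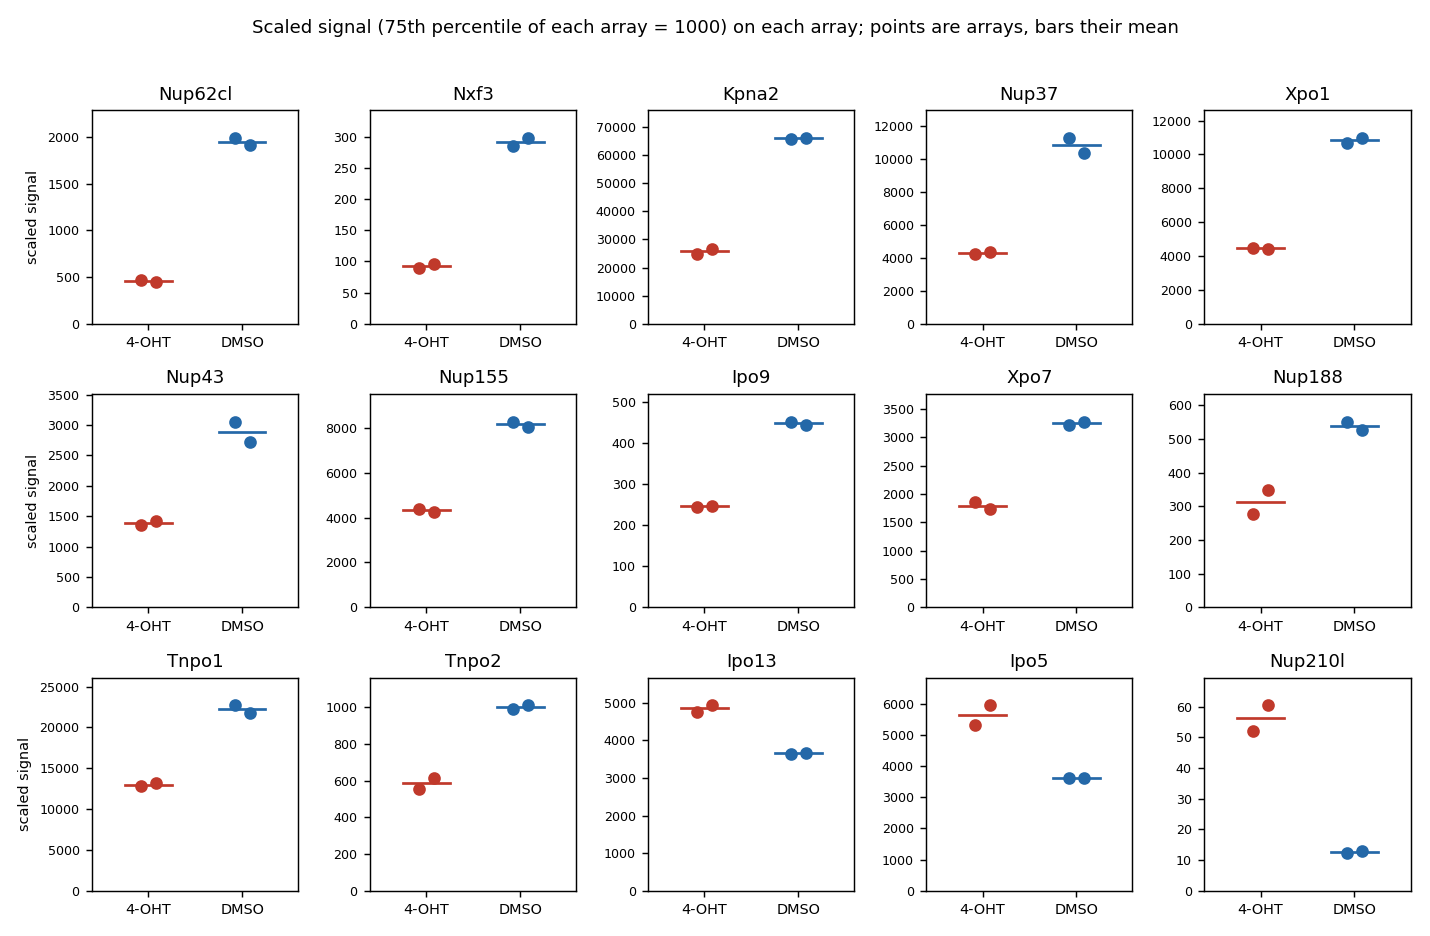
Scaled signal on each array (vertical axes start at 0) for the 12 transport genes with the largest falls and the 3 higher genes, treated arrays (4-OHT) left and DMSO arrays right in each panel; points are arrays and bars their mean. The genes were picked for groups that do not overlap, which holds for 86.5% of all features; Nup62cl lies at 469 and 447 in treated cells, against 1989 and 1915 in DMSO cells.

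Importin alpha proteins recognise nuclear localisation signals and are carried in by importin beta, the product of Kpnb1. Kpna2, the importin alpha linked to dividing and undifferentiated cells, fell most: it read 24915 and 26711 in treated cells, against 65904 and 66051 in DMSO cells (chr11:106850179-106850238 in mm9; 2.56-fold lower, difference -1.35, SE 0.07, adjusted p = 0.0006). A second Kpna2 probe, at base 1183, read 4596 and 5100 in treated cells, against 16781 and 14872 in DMSO cells (-1.71). The treated arrays were far below the DMSO arrays with either probe.

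The other importin alpha genes differed little by their brightest probes. Kpna3 was lower (-0.26, adjusted p = 0.03), a call lost when any 1 array was left out (adjusted p between 0.055 and 0.12), although its 2 other probes gave -0.56 and -0.58. Kpna1 (-0.17, adjusted p = 0.16), Kpna6 (-0.10, adjusted p = 0.28) and Kpna4 (0.11, adjusted p = 0.25) were not called. With each array scaled to its median, Kpna1 and Kpna6 were lower (-0.35 and -0.28), and Kpna6 was also lower with probes averaged (-0.93, adjusted p = 0.0069). Kpnb1 was not called (0.15, adjusted p = 0.12).

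Of the 11 importin beta family genes for import, 5 were lower, 2 higher and 4 not called. Ipo9, a carrier of histones, read 245 and 248 in treated cells, against 452 and 445 in DMSO cells (-0.86, SE 0.06, adjusted p = 0.00092), by the junction probe printed above. Tnpo1, the transportin of hnRNP proteins, read 12869 and 13137 in treated cells, against 22692 and 21756 in DMSO cells (chr13:99614015-99614074 in mm9; -0.77, SE 0.06, adjusted p = 0.0012). A later Tnpo1 probe, at base 8033, was not called and read 6145 and 5114 in treated cells, against 5641 and 6538 in DMSO cells, and the mean of both probes gave -0.44.

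Tnpo2, the close paralogue of Tnpo1, read 557 and 617 in treated cells, against 991 and 1011 in DMSO cells (chr8:87580660-87580719 in mm9; -0.77, SE 0.08, adjusted p = 0.002), and its second probe gave -1.20. Tnpo3, a carrier of serine-arginine splicing factors, read 6842 and 6958 in treated cells, against 10029 and 10637 in DMSO cells (-0.58). Ipo11 was lower (-0.37, adjusted p = 0.019), with an adjusted p of 0.062 without DMSO replicate 2 and 0.071 without 4-hydroxytamoxifen replicate 2. With its 2 kept probes averaged Ipo11 gave -0.78.

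Ipo5 and Ipo13 were the importins that rose. Ipo5, a carrier of histones and ribosomal proteins, read 5310 and 5945 in treated cells, against 3622 and 3603 in DMSO cells (chr14:121345317-121345376 in mm9; 1.56-fold higher, difference 0.64, SE 0.08, adjusted p = 0.0036), and its second probe was also higher (0.31). Ipo13, which carries cargo in both directions, read 4763 and 4926 in treated cells, against 3646 and 3665 in DMSO cells (chr4:117567174-117567233 in mm9; 1.33-fold higher, difference 0.41, SE 0.06, adjusted p = 0.0056). With median scaling Ipo13 gave 0.22 (adjusted p = 0.034) and with spike-in scaling it did not pass (0.25, adjusted p = 0.29), while Ipo5 kept its call under all 13 alternatives.

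Ipo7, Ipo8 and Ipo4 were not called. Ipo7 read 4802 and 4619 in treated cells, against 4816 and 7350 in DMSO cells, so that 1 DMSO array stood apart (-0.34, adjusted p = 0.24). Without DMSO replicate 1 the Ipo7 difference was -0.64. The other 3 Ipo7 probes were lower, but they were far dimmer (at most 282 on any array). They were also designed to other accessions than the brightest probe. Ipo8 differed by 0.14 (adjusted p = 0.26) and Ipo4, a carrier of histones, by -0.05 (adjusted p = 0.59), and the groups overlapped in both. The brightest Ipo8 probe, which gave this value, has no mm9 position and was designed to another accession than the other Ipo8 probes. Another Ipo8 probe, at base 3575, was higher by itself: it read 2012 and 1999 in treated cells, against 1582 and 1502 in DMSO cells (0.38, adjusted p = 0.01).

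Exportins carry cargo out together with Ran in its GTP form. Of 6 genes, 5 were lower and Xpot was not called, with a median difference of -0.65. Xpo1, the receptor for leucine-rich export signals, read 4484 and 4441 in treated cells, against 10708 and 10960 in DMSO cells (chr11:23196643-23196702 in mm9; 2.43-fold lower, difference -1.28, SE 0.06, adjusted p = 0.00054). The 2 treated arrays were close to each other and far from the DMSO arrays. Both other Xpo1 probes were too dim to be kept.

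Xpo7 was the only transport gene with probes called in opposite directions, which 8.39% of the 6320 genes with 2 or more kept probes showed. Its probe at base 4397 (chr14:71064714-71064773 in mm9, minus strand) read 1854 and 1740 in treated cells, against 3220 and 3276 in DMSO cells (-0.85, SE 0.07, adjusted p = 0.0012). The other probe named Xpo7 (chr14:71059726-71059785 in mm9) is placed on the plus strand, was designed to another accession, and read 61.4 and 67.9 in treated cells, against 43.2 and 37.5 in DMSO cells (0.68, adjusted p = 0.0066). Averaged over both, Xpo7 did not pass (-0.09, adjusted p = 0.33), so the fall is that of the minus-strand probe.

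Xpo6, the actin exporter, read 657 and 827 in treated cells, against 1252 and 1188 in DMSO cells (-0.73, SE 0.13, adjusted p = 0.0098). Xpo4 read 121 and 130 in treated cells, against 187 and 184 in DMSO cells (-0.57; -0.35 with normexp). Xpo5, the exporter of microRNA precursors, differed by -0.30 (adjusted p = 0.037), a call lost when any 1 array was left out (adjusted p between 0.054 and 0.14). Its early junction probe, printed above, was not well above background on either treated array and at least 1.56-fold lower there.

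Bulk mRNA leaves through the Nxf1 and Nxt1 pair rather than with an exportin. Of the 5 measured genes of this group, 4 were lower and Nxf2 was not called (0.09, adjusted p = 0.52). Nxf3, an X-linked relative of Nxf1, read 89.9 and 95.6 in treated cells, against 286 and 298 in DMSO cells (chrX:132606993-132607052 in mm9; 3.15-fold lower, difference -1.65, SE 0.07, adjusted p = 0.00047). With normexp its difference was -1.06. Nxt1, the small partner of Nxf1, read 4990 and 5429 in treated cells, against 7993 and 7819 in DMSO cells, and its 2 probes both gave -0.60. Nxf1 was lower (-0.46, adjusted p = 0.013), with an adjusted p of 0.051 without 4-hydroxytamoxifen replicate 1. Nxt2, a relative of Nxt1, was lower too (-0.42, adjusted p = 0.0079).

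**Figure D3:**
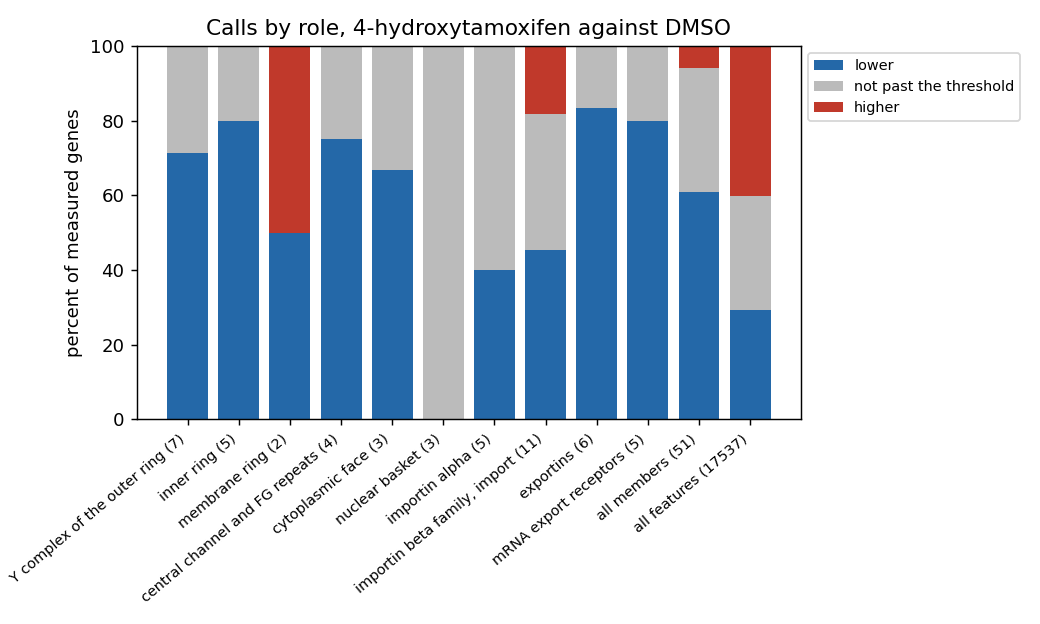
Share of measured genes (vertical axis, percent) called lower (blue), not called (grey) or higher (red) in treated cells, by role, with the number of genes in brackets. The last bars are the 51 transport genes, of which 60.8% were lower, and all 17537 features, of which 29.3% were lower.

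Genes of the same system that carry other names gave the following counts, each read against the 29.3% lower and 40.3% higher of all features. Of 11 further pore components, 5 were lower, 2 higher and 4 not called, with a median of -0.17. Nupl1, which encodes an FG partner of Nup62 and Nup54, read 988 and 972 in treated cells, against 2199 and 2118 in DMSO cells (-1.14). Ndc1, a membrane nucleoporin listed as Tmem48, read 3239 and 3044 in treated cells, against 6750 and 6649 in DMSO cells (-1.09), and Rae1, the mRNA export factor that binds Nup98, was lower (-0.97). Ranbp2, the large protein of the cytoplasmic filaments, and Gle1, an mRNA export factor on the same face, were higher (0.53 and 0.51) but did not pass with spike-in scaling, under which no gene of the list was higher.

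Of 7 further transport receptors, 6 were lower and none was higher, with a median of -0.55. Cse1l, the exportin that returns importin alpha to the cytoplasm, read 3203 and 3274 in treated cells, against 7423 and 7818 in DMSO cells (-1.23). Hikeshi, the importer of Hsp70 (-1.28), and Nutf2, the importer of Ran (-0.78), were also lower. Of 9 genes of the Ran cycle, 8 were lower and Ranbp10 was higher (0.45), with a median of -0.70. Rcc1, the nuclear exchange factor that loads Ran with GTP, read 876 and 1044 in treated cells, against 2413 and 2408 in DMSO cells (-1.33), and Rangrf (-1.24) and Rangap1, the activator of GTP hydrolysis by Ran (-0.75), were lower as well.

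Of 18 mRNA export adaptors, 12 were lower, 2 higher and 4 not called, with a median of -0.43. Ddx39b, a helicase that loads export factors on mRNA, read 9164 and 9653 in treated cells, against 18005 and 19314 in DMSO cells (-0.99). Ddx19a (-0.85) and Mcm3ap (-0.73) followed, and Thoc7 (0.31) and Zc3h11a (0.26) were the higher ones. Of 16 genes of the nuclear lamina and inner membrane, 9 were lower, 2 higher and 5 not called, with a median of -0.39. Lmnb1, a B-type lamin, read 1087 and 851 in treated cells, against 3067 and 2695 in DMSO cells (-1.58), and the lamin receptor Lbr (-1.52) and the chromatin-tethering Banf1 (-1.25) were lower as well. Lmna, the A-type lamin gene, read 73738 and 72131 in treated cells, against 31804 and 36086 in DMSO cells (1.11), and Syne2, which links the envelope to the cytoskeleton, was higher by 0.70.

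Probes along the same transcript did not always give the same difference, in transport genes as elsewhere on the array. The comparison was chosen after these values were seen. In 23 genes, the kept probes nearest the start and nearest the end of the same transcript could be compared, and the difference at the end was above that at the start in 14 of 23, or 60.9%, against 74.4% of 5007 genes on the array. The end probe was higher relative to the start probe in 7 genes past the threshold, 30.4% of the 23 against 27.7% of all genes, and lower in 1, 4.35% against 5.47%, shares near those of the array. With 4-hydroxytamoxifen replicate 1 left out, fewer genes were in the first set. The share over all genes in that fit is not given here.

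Xpot, the exporter of tRNA, had one of the largest gaps. Its probe at base 3297 read 2126 and 1965 in treated cells, against 5444 and 5371 in DMSO cells (-1.40, adjusted p = 0.00075). The probe at base 5838 read 4391 and 4224 in treated cells, against 4045 and 4066 in DMSO cells (0.09, adjusted p = 0.31), so the transcript end gave no call where the earlier stretch was clearly lower. The probes differed by 1.49 (SE 0.08, adjusted p = 0.0036), in all 7 alternatives.

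Kpna6 differed likewise by 1.67 (SE 0.22, adjusted p = 0.01). Its probe at base 1117 read 22.4 and 24.9 in treated cells, against 102 and 63.7 in DMSO cells, and it was well above background on 1 treated array only. The probe at base 5521 read 6275 and 6093 in treated cells, against 6840 and 6387 in DMSO cells. Ipo11 (0.83), Nup153 (0.71), Ipo8 (0.60) and Tnpo2 (0.43) also passed. The seventh gene, Xpo5, rests on the start probe that was not well above background in treated cells, so its gap has no exact size. The call of Ipo11 held in 7 of 7 alternatives, that of Nup153 in 6 of 7, Kpna6 in 5 of 6, Ipo8 in 4 of 7, Xpo5 in 3 of 6 and Tnpo2 in 1 of 7. Nup98 went the other way (-0.78, SE 0.10, adjusted p = 0.0088): its probe at base 445 was not called (0.13), while the probe at base 3617 read 409 and 406 in treated cells, against 644 and 634 in DMSO cells (-0.65). The Nup98 probe at base 445 was dim, at 44.9 and 41.1 in treated cells, against 41.0 and 37.4 in DMSO cells. A Nup98 probe at base 2622 was lower (-0.43, adjusted p = 0.015). Another Nup98 probe, at base 4300 of another accession, was not called (0.11), so the lower value was not seen at every late position.

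**Figure D4:**
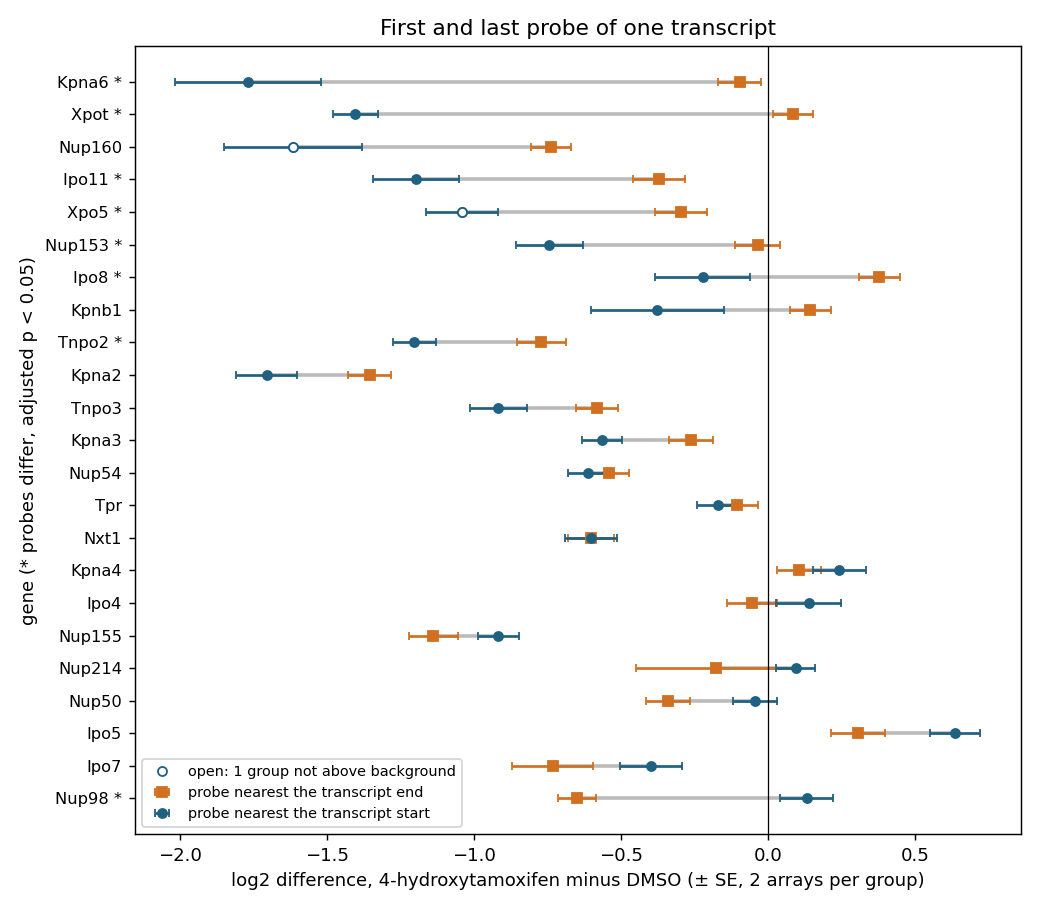
Log2 difference (horizontal axis, treated minus DMSO, bars are the SE, 2 arrays per group) of the probe nearest the start (blue circles) and nearest the end (orange squares) of the transcript in 23 transport genes. Asterisks mark the 8 genes whose probes differed, and open circles (Nup160, Xpo5) start probes not well above background in treated cells; in Xpot the start probe lies at -1.40 and the end probe at 0.09.

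Promoters of 4 genes with large falls are shown because they hold motifs known from genes of growing and dividing cells, and they were picked after their values were seen. Of the 52 genes, 41 matched a promoter in RefSeq (GRCm38.p6), from 250 bases before to 50 after the start. The searched letters, on both strands, were CCAAT for the CCAAT box, TTTGAA for the cell cycle homology region (CHR), CCGGAAGT for ETS factors, the longer NRF1 motif, GCCATNTTG for YY1, and TTTCGCGC and TTTGGCGC for E2F. None of these overlaps another in the stretches shown, which hold the 120 bases before the start, 5′ to 3′ on the gene's strand, with motifs in capitals (TTCAAA and ATTGG are the CHR and CCAAT letters read from the other strand). Those of Kpna2 (chr11:106999526-106999645, minus strand), Nup37 (chr10:88146872-88146991, plus strand) and Tnpo2 (chr8:85036773-85036892, plus strand) hold CCAAT and CHR letters, and that of Nup155 (chr15:8109193-8109312, plus strand) holds CCAAT and ETS letters.
Kpna2: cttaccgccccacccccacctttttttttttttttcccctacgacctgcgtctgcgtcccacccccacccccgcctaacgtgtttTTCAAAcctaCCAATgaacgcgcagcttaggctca
Nup37: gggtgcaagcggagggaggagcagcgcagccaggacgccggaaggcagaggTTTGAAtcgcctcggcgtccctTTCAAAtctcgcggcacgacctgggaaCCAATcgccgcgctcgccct
Tnpo2: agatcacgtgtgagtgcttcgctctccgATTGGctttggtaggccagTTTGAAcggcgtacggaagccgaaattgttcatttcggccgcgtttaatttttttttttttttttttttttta
Nup155: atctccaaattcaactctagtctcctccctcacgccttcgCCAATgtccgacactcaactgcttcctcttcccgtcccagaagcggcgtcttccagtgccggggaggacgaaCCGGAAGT

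A gene had up to 2 promoters (53 for the 41 transport genes) and was counted if any of them held the letters. Where a gene had several, the first listed is shown above. The CCAAT letters occurred in 53.7% of the 41 transport genes, against 42.3% of 17492 coding genes, and CHR letters in 22.0%, against 18.5%. Among the 25 lower genes with a promoter, 60.0% held CCAAT and 16.0% held CHR letters, while the other 16 held them in 43.8% and 31.2%. The ETS letters were in 14.6% of transport genes, against 5.69% of coding genes, the NRF1 letters in 9.76%, against 1.47%, and the YY1 letters in 12.2%, against 3.32%. Of the E2F forms, TTTCGCGC was in 2.44%, against 0.526%, and TTTGGCGC in none, against 0.726%. These matches describe letters and were not tested against the array values.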

How the data were processed

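Total RNA was measured on 4 arrays, 2 per group, all on 1 slide and in 1 scan, with treated RNA at slide positions 2 and 4 and DMSO RNA at positions 1 and 3. The deposited scanner files hold intensity values per spot on a linear scale, background-subtracted and detrended by Agilent Feature Extraction 10.7.3.1, per the file headers (the submitters' processing notes name version 9.5). A deposited table of log2 values differed from the log2 of these processed signals by a constant for each array, to within 0.01 for 99.7% of probes, with column medians of 6.35 and 6.35 for treated and 6.16 and 6.18 for DMSO arrays, and it served as an alternative.

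Log2 processed signals were set relative to the 75th percentile of each array. Control and outlier spots were left out, spots of a probe were averaged, and a probe was kept where 2 or more of the 4 arrays had it well above background (26393 of 41174). Between 62.1% and 65.9% of probes were well above background per array. Differences were fitted with limma 3.58.1 in R 4.3.3, with group as the only term, over all 17537 features (brightest kept probe) or all kept probes. The scripts were checked on simulated data. With 2 arrays against 2, an exact test of a single value cannot go below p = 0.333, and the number of arrays limits the precision. Same-numbered arrays deviated from their group means with a correlation of -0.05, so they were not taken as pairs. Probes were named through RefSeq where an accession or symbol matched (33636 probes), and kept the file's name otherwise.

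Members and lists were chosen with earlier results of these data known. Full statistics are given by rule for the 12 largest calls in each direction whose groups did not overlap, for genes with opposite probes, and for the genes with the highest and lowest mean signal (Kpna2 and Nup210l), and for at most 3 genes a direction in each related list. Genes outside it were chosen after their values were seen. Alternatives were normexp background correction, quantile normalization, median and spike-in scaling, the deposited table, stricter and no filters, the mean of a gene's probes, a replicate block, and each array left out.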

Additional observations from a re-analysis of the deposited data

How the results depend on the processing

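Of 662 comparisons of a transport gene with its result under an alternative, 607 stayed on the same side of the threshold. In 43 the call was lost and in 10 it was gained. The other 2 gained a call with the sign changed: with probes averaged, Nup98 was lower (-0.21, adjusted p = 0.041), as was Xpot (-0.66, adjusted p = 0.0021). Neither was called as reported (0.11 and 0.09), and their probes disagree. Of the 607, 580 also kept their sign and 27, all of genes not called, did not: Ipo8, Kpna4, Kpnb1, Nup133, Nup214, Nup50, Nup98, Nxf2 and Xpot were slightly above 0 as reported and below 0 with median and with spike-in scaling (9 genes in each). Lower genes numbered between 24 (no filter) and 35 (median scaling, or probes averaged), and higher genes 2 or 3. The median of the transport genes was -0.35 with normexp, -0.55 with median scaling, -0.52 with spike-in scaling, -0.39 with the filter on all 4 arrays, -0.35 without a filter, -0.51 with probes averaged, and between -0.42 and -0.35 with each array left out. Median and spike-in scaling moved the median of all features to -0.07 and -0.04, and the median of the transport genes minus that of all features was -0.48 under both, as in the scaling reported. Over all features, 7063 were higher and 5132 lower, against 5730 and 6663 with median scaling.

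With a replicate block, 26 transport genes were lower and 3 higher, and 0 mRNA export adaptors were higher. Same-numbered arrays did not deviate together (correlation -0.05), and the labels do not say whether such samples were paired. With spike-in scaling, 3 transport probes were higher, and 0 pore components, 0 Ran cycle genes and 0 adaptors. Median scaling gave 8 lower pore components and 0 higher adaptors. Without a filter, 0 adaptors were higher and 7 lower. With probes averaged, 0 Ran cycle genes, 1 adaptor and 1 lamina gene were higher. Leaving out each array in turn gave between 0 and 1 higher adaptors. For the probes at transcript ends, the counts of genes with a higher or a lower end also varied with the array left out. The count with a lower end was 3 with normexp and 2 with the filter on all 4 arrays. Nup107, Nup88, Nup210, Kpna3 and Xpo5 lost their calls with spike-in scaling, without a filter and with the block, and Nup62 and Ipo11 without a filter. The cause of these changes was not tested. Counts over all features are given here for the reported fit and for median scaling only. Changes in the counts under the other settings cannot be told apart from a change in calls across the whole array.

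Nup210l could not be tested with the filter on all 4 arrays, because its probe was not well above background in DMSO cells. Dim probes such as this one limit what can be measured.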
